A study of Mus musculus with 10 samples.

Results

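The 6 arrays of mice given kainate were compared with the 4 arrays of mice given saline, which together are all 10 arrays of the series. Each array measured hippocampal total RNA pooled from 3 to 4 mice that were 3 weeks old. The arrays with kainate in their label were 2 of wild-type mice at 14 mg/kg, 2 of A-CREB mice at 14 mg/kg and 2 of A-CREB mice at 18 mg/kg. The arrays with saline in their label were 2 of wild-type and 2 of A-CREB mice. The strain of the wild-type mice was C57BL6 F1/J, and the A-CREB mice were TetO-A-CREB-95 on C57BL6 F1/J. The labels give no wild-type group at 18 mg/kg, so that dose was measured in A-CREB mice alone. The pools drew on 14 wild-type and 20 A-CREB animals. Each replicate is thus a pool, so the error given with a value is that of pools, and mouse-to-mouse variation was not measured. A-CREB is an engineered protein that pairs with CREB and keeps it from binding DNA. The transgene sits behind a tetracycline operator, and the line that drives it in these mice, like the time from injection to dissection, was not given in the sources used here.

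Kainate opens ionotropic glutamate receptors, excites hippocampal circuits strongly and provokes seizures. Neurons respond to such activity in waves: calcium and kinase signals act on factors already present, among them CREB and SRF, which switch on immediate-early genes, and the products of these genes then act on later genes. Transcripts can also fall after activity, when their synthesis is reduced or their decay is faster.

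Levels are log2(signal + 22), where the signal is the linear intensity of a probe set as deposited, and a change is the fitted difference, kainate minus saline, on that scale. Genotype and replicate number entered the limma fit as additive factors, with 6 residual degrees of freedom and Benjamini-Hochberg adjustment over 13219 genes. A gene is said to have risen or fallen where its adjusted p was under 0.05. The number 22 added to each signal shrinks the changes of dim genes.

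With all arrays in 1 comparison, 500 genes passed the threshold, 3.78% of those tested. Of these 300 rose (2.27%) and 200 fell (1.51%). The median rise was 0.70 and the median fall was -0.49, against a median change of -0.03 over all genes. Rises ran from 0.26 to 5.89, with 95 over 1 and 31 over 2. Falls ran from -0.28 to -1.12, and only 4 of the 200 were larger than 1 in size. At an unadjusted p under 0.05, where 661 genes are expected by chance, there were 2431 genes, 933 higher and 1498 lower after kainate. The falls were thus many and small, and the rises fewer at that level but far larger.

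**Figure D1:**
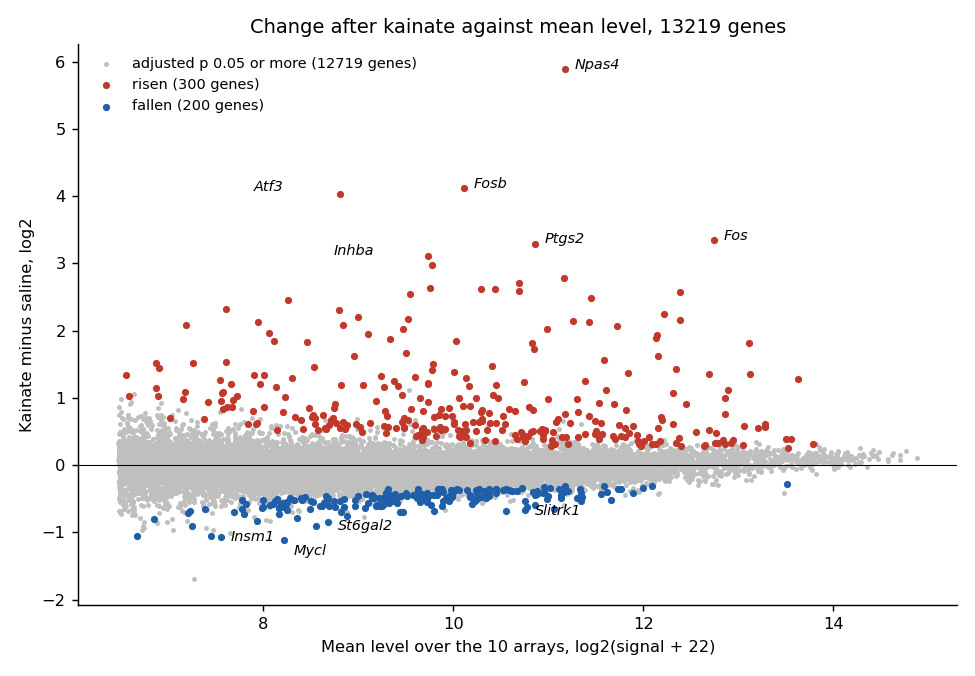
Change after kainate on the log2 scale (vertical) against mean level over the 10 arrays, log2(signal + 22) (horizontal), 1 point per gene for 13219 genes, with risen genes in red and fallen genes in blue. Rises reach 5.89 (Npas4), while the fallen genes form a band that ends at -1.12 (Mycl).

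The count of falls depended on the replicate number as a factor and on single arrays. Without the number 117 genes rose (0.885%) and 11 fell (0.0832%). The number of falls was 49 without A-CREB saline replicate 1, 60 without wild-type kainate replicate 1, 72 without A-CREB kainate at 14 mg/kg replicate 1, 74 without wild-type saline replicate 2, 83 without A-CREB kainate at 14 mg/kg replicate 2, 90 without wild-type saline replicate 1 and 133 without A-CREB kainate at 18 mg/kg replicate 2. Leaving out A-CREB saline replicate 1 or wild-type kainate replicate 1 lowered the rises to 183 and 184. Passing whichever array was left out were 151 rises and 21 falls, while 135 of the 200 falls passed in 5 or fewer of the 10 fits. All 200 falls were below 0 in every one of those 10 fits, which share 9 of the 10 arrays on which the genes were called, so that sign is no independent reading.

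In fits with a response for each genotype, here and below, the A-CREB response pooled both doses. Its difference from the wild-type response therefore includes dose. In these fits all 300 rises were above 0 and all 200 falls below 0 in wild-type and in A-CREB mice. The genes were called on these same arrays, which largely fixes that sign, and the readings on separate arrays further down were weaker for falls. Each kainate array was also set against the saline array of its own genotype and number. By that measure 286 rises and 188 falls had the sign of the fit in 6 of 6 kainate arrays, and the remaining 14 and 12 in 5 of 6. Over all 13219 genes, 775 were higher in 6 of 6 (5.86%) and 1255 were lower (9.49%). All kainate arrays lay above all saline arrays for 185 of the rises (1.73% of all genes did so) and below them for 88 of the falls (1.79% of all genes). Within each replicate number the groups were apart for 257 rises (3.3% of all genes) and 153 falls (4.79%). The median over the 300 risen genes lay between 0.60 and 0.90 in the 6 kainate arrays, and over the 200 fallen genes between -0.36 and -0.60. A-CREB kainate at 14 mg/kg replicate 1 had both the highest median over the rises and the lowest over the falls.

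**Figure D2:**
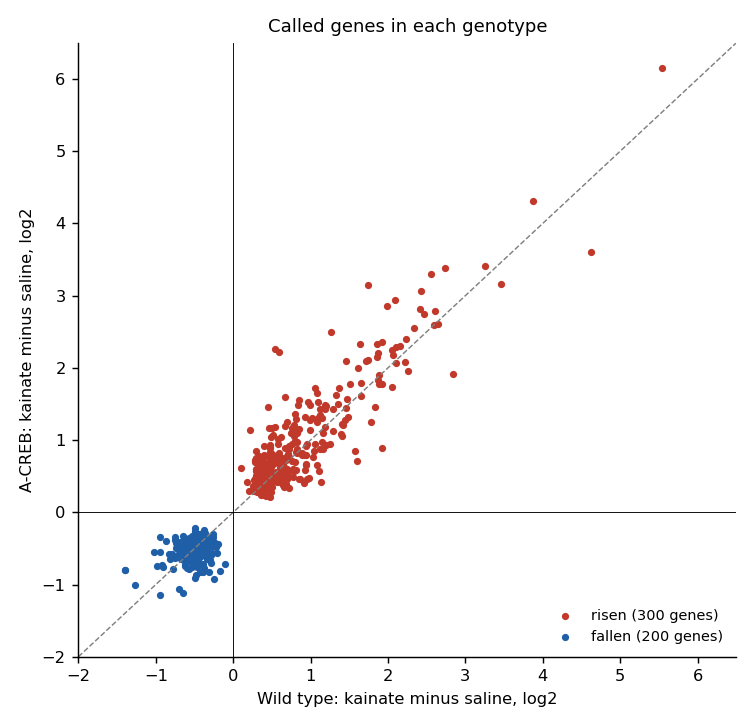
Change after kainate in A-CREB mice (vertical) against wild-type mice (horizontal), log2, for the 300 risen (red) and 200 fallen (blue) genes, with the dashed line at equal change. No called gene lies in a quadrant of opposite signs, which the calling of genes on these same arrays largely fixes, and the falls crowd near -0.49 in both genotypes.

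A test of the difference between the wild-type and A-CREB responses gave 0 genes (0%) with an adjusted p under 0.05 by limma. The wild-type response was at 14 mg/kg and the A-CREB response pooled 14 and 18 mg/kg, so dose is part of that difference. The smallest adjusted p was 0.555, for Zfas1, a noncoding RNA that hosts small nucleolar RNAs, whose A-CREB response was lower by 1.27 (SE 0.22). At an unadjusted p under 0.05 there were 586 genes, fewer than the 661 expected by chance. With only the saline arrays and those at 14 mg/kg, 0 genes passed, and the smallest adjusted p was 0.574 by limma. Without wild-type kainate replicate 1 there were 3 such calls (Clasrp, Pde10a and Col27a1), without wild-type saline replicate 1 there was 1 (Otub1) and without A-CREB saline replicate 1 there was 1 (Kctd7). A p that misses the threshold does not show equal responses.

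What the comparison over both genotypes added was mostly falls. Fitted alone, the 4 wild-type arrays gave 151 rises and 56 falls and the 6 A-CREB arrays 156 rises and 16 falls. Of the 300 rises of the joint fit, 138 also passed in wild type alone, 143 in A-CREB alone and 118 in neither. Of the 200 falls, 16 passed in wild type alone, 11 in A-CREB alone and 174 in neither. The genotypes share no array, so each can be read where the other was called. Of the 151 wild-type rises, 148 were above 0 in A-CREB, where 47.6% of all genes were, and 99 passed there. Of the 56 wild-type falls, 44 were below 0 in A-CREB, where 52.4% of all genes were, and 1 passed. Of the 16 A-CREB falls, 14 were below 0 in wild type, where 58.3% of all genes were, and 1 passed. The wild-type falls had a median of -0.99 where they were called and -0.24 in A-CREB, and the A-CREB falls had -0.76 and, in wild type, -0.27. The wild-type rises had 1.14 and, in A-CREB, 1.13, and the A-CREB rises had 1.19 and, in wild type, 0.94.

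The 2 replicate numbers can be read in the same way. The 5 arrays numbered 1 alone called 553 rises and 461 falls, and the 5 numbered 2 called 142 and 20. Of the 461 falls on number 1, 328 were below 0 on number 2, where 60.6% of all genes were, and 4 passed there. Of the 553 rises on number 1, 393 were above 0 on number 2, where 39.4% of all genes were, and 104 passed. Both medians shrank, from -0.61 to -0.13 for these falls and from 0.52 to 0.15 for these rises. Read the other way, 136 of the 142 rises on number 2 were above 0 on number 1, where 49.7% of all genes were. Of these rises 104 passed there, among its 553, with medians of 1.24 and 0.99. Of the 20 falls on number 2, 16 were below 0 on number 1, where 50.3% of all genes were. Of these falls 4 passed there, among its 461, with medians of -0.82 and -0.20.

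Among the falls, Insm1 had the smallest p. Insm1 is a zinc finger transcription factor of neuronal and neuroendocrine progenitors. Its signal after saline was 252 and 267 in wild type and 304 and 259 in A-CREB, and over the 6 kainate arrays it was 91.6 at the lowest, 124 at the median and 140 at the highest. The groups did not overlap, and every kainate array was below every saline array. Its change was -1.06 (SE 0.16, adjusted p = 0.000995 by limma), a 2.09-fold fall. The sizes were -0.95 in wild type and -1.15 in A-CREB. A second probe set of Insm1 changed by -0.67 (SE 0.23) and did not pass. Insm1 passed without the replicate number (adjusted p = 0.00842 by limma) and without each array in turn.

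St6gal2 encodes a sialyltransferase, an enzyme that caps glycans with sialic acid. Its signals after saline were 651 and 638 in wild type and 501 and 505 in A-CREB, and after kainate they ran from 247 over a median of 301 to 384. The groups did not overlap, and the drop ran from -0.61 to -1.26 over the 6 arrays. The change was -0.85 (SE 0.13, adjusted p = 0.00126 by limma).

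Zc3h6, a CCCH zinc finger protein, had signals of 477, 515, 476 and 674 after saline and of 188 to 320 after kainate, with a median of 282. Its change was -0.91 (SE 0.14, adjusted p = 0.00142 by limma), and no kainate array reached a saline array. Zfp74, another zinc finger protein, had saline signals of 436, 344, 524 and 413. Its kainate signals ran from 203 over 236 to 306, below all saline arrays, and it changed by -0.79 (SE 0.13, adjusted p = 0.00183 by limma).

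Tmem200c, a membrane protein, fell by 0.83 (SE 0.15, adjusted p = 0.00507 by limma), from saline signals of 349, 391, 351 and 242 to kainate signals between 124 and 205. A second Tmem200c probe set was at 0.11 (SE 0.20) and did not pass, so the probe sets of this gene disagree. Amer3, of a family that binds the APC protein of the Wnt pathway, had 771 and 1228 in wild type and 744 and 1082 in A-CREB after saline, with a lowest, median and highest signal of 404, 552 and 724 after kainate. Its saline arrays numbered 2 were brighter than those numbered 1, and its groups still did not overlap. Amer3 changed by -0.69 (SE 0.11, adjusted p = 0.00173 by limma) but did not pass without the replicate number (adjusted p = 0.116 by limma).

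Those 6 were the falls among the 16 largest that passed whichever array was left out. The other 10 of the 16 largest falls each lost the call without at least 1 array. Without A-CREB saline replicate 1 all 10 missed the threshold, with adjusted p from 0.0713 to 0.203 by limma. Without wild-type kainate replicate 1 there were 8 that missed it, without wild-type saline replicate 1 there were 7, and without wild-type saline replicate 2 or A-CREB kainate at 14 mg/kg replicate 1 there were 6. Without A-CREB kainate at 14 mg/kg replicate 2 there were 5, without A-CREB saline replicate 2 there were 4, and without wild-type kainate replicate 2 or either array at 18 mg/kg there were 2. These 10 are given by value in the next paragraph, and none of them passed without the replicate number (adjusted p from 0.0512 to 0.531 by limma, Amer3 included).

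Mycl, a Myc family transcription factor, had the largest fall, -1.12 (SE 0.28, adjusted p = 0.0375 by limma). After saline it stood at 389, 426, 526 and 431, but after kainate it ran from 90.0 to 399 with a median of 248, so that the groups overlapped. The lowest kainate arrays of Mycl were wild-type replicate 2, at 90.0, and A-CREB at 18 mg/kg replicate 2, at 97.0. Acap1, an Arf GTPase activator, changed by -1.06 (SE 0.27) from dim saline signals between 58.1 and 307, and another of its probe sets was at 0.25. Zswim3, a SWIM zinc finger protein, changed by -1.05, and Zfp423, a zinc finger factor of neural development, by -0.91. Arhgef15, which limits excitatory synapses, changed by -0.81 on 1 probe set and by -0.04 on another. Napepld, the phospholipase that makes N-acylethanolamines such as anandamide, changed by -0.73 and Calhm2, a large-pore channel, by -0.72. Git1, an Arf GTPase activator and synaptic scaffold, changed by -0.70, and its value without A-CREB saline replicate 1 was -0.43. Rsl1, a KRAB zinc finger repressor, and Arid4a, a chromatin protein that binds Rb, both changed by -0.70. Arid4a lost its call only without A-CREB saline replicate 1 (adjusted p = 0.0743 by limma).

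**Figure D3:**
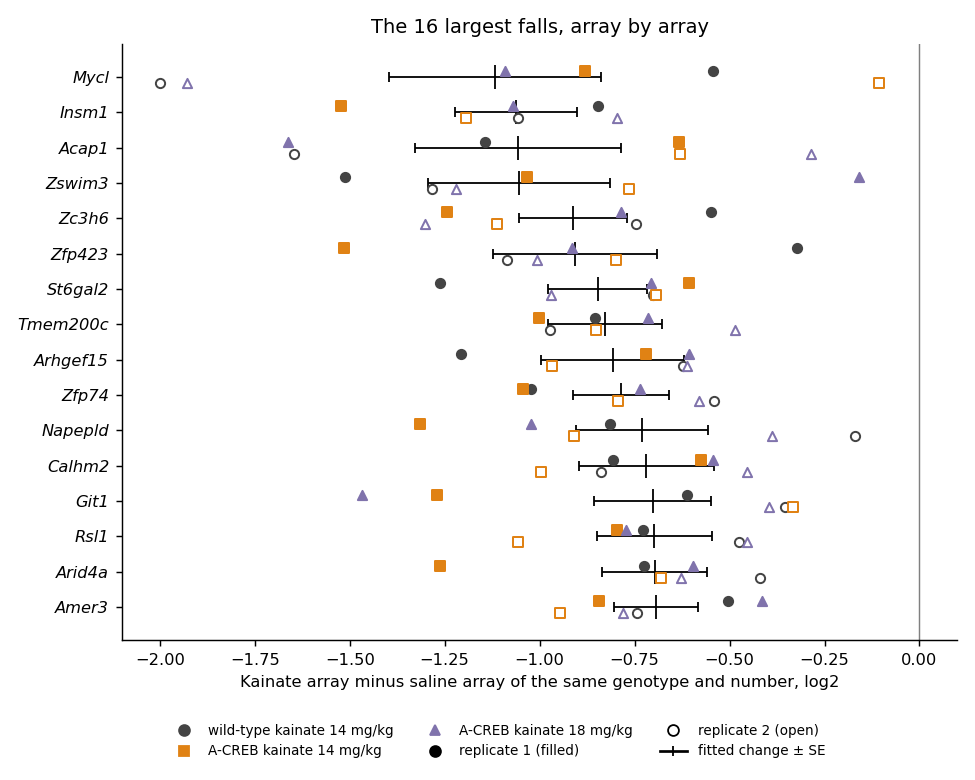
The 16 largest falls among genes with the same sign in 6 of 6 arrays; each symbol is 1 kainate array minus the saline array of its genotype and number (log2, horizontal), and each bar is the fitted change ± SE. Every symbol lies below 0, and those of Mycl run from -0.11 past -1.93.

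The 21 falls that passed without any single array held 14 genes that the naming rule did not reach, besides Slitrk1, and the following were chosen after their values were seen. Vopp1, a vesicle-associated protein, had saline signals of 1832, 2303, 2185 and 1665 and kainate signals from 1057 to 1398. It changed by -0.69 (SE 0.11) with no overlap. Foxk1, a forkhead repressor, had saline signals between 506 and 648 and kainate signals between 312 and 397, and changed by -0.63 (SE 0.11). Adgrb3, an adhesion receptor at excitatory synapses, changed by -0.49 (SE 0.09). Gfra2, the receptor for neurturin, changed by -0.56 (SE 0.11) and Zfp592, a zinc finger protein, by -0.67 (SE 0.12). Nsd1, a histone H3 methyltransferase, changed by -0.47 (SE 0.08), Chst15, a chondroitin sulfotransferase, by -0.59 (SE 0.11) and Wdr33, a subunit of the polyadenylation machinery, by -0.60 (SE 0.12). Vopp1, Foxk1, Adgrb3, Gfra2 and Zfp592 also passed without the replicate number.

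Calls were also counted by brightness. Ordered by mean level, the dimmest 4407 genes held 35 falls, the middle 4406 held 96 and the brightest 4406 held 69, and the rises numbered 43, 90 and 167. The median standard error went from 0.19 over 0.12 to 0.09, and the median size of a called fall from -0.63 over -0.49 to -0.40. Where the error was larger, the called falls were larger. The count of falls did not follow the error, as the brightest genes held fewer than the middle ones. The part of brightness in the calls was not tested. On simulated data with 200 of 13219 genes changed, 36.7% of falls of 0.5 and 86.8% of falls of 1 were found. The simulated noise was independent between genes, with no difference of response between the replicate numbers. These shares therefore need not hold for the real arrays.

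The fallen genes were longer than the risen ones. The RefSeq span from first to last base had a median of 40.1 kb over 200 fallen genes, 24.0 kb over 13161 genes tested and 14.3 kb over 298 risen genes. Genes spanning over 100 kb made up 20% of the fallen, 14.8% of all and 5.7% of the risen. Genes under 10 kb made up 18.5%, 24.9% and 41.9%. The rule did not use length, and these shares are given as a description.

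Genes named Zfp were common among the falls, which was noticed after the values were seen. Of 300 tested genes with such a symbol, most of which encode C2H2 zinc finger proteins, 13 fell (4.33%, against 1.51% of all genes) and 6 rose. Of the 13 falls only Zfp74, Zfp592 and Zfp763 passed whichever array was left out. Only Zfp74 and Zfp592 passed without the replicate number. The risen include Zfp36 and Zfp36l2, which are RNA-binding CCCH proteins that speed messenger decay. In all 235 of the 300 had a change below 0 (78.3%, against 55.5% of all genes), with a median of -0.18. They were dimmer than most, with a median saline signal of 323 against 593 over all genes.

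Lists of genes are given next by their counts and medians. Over all genes 1.51% fell, 2.27% rose, 55.5% were below 0 and the median was -0.03, and each list is to be read beside those values. Of 24 tested transcription factors of the neuronal lineage 2 fell (8.33%) and 0 rose, 21 were below 0, and the median was -0.19. The count of falls was 0 without the replicate number and 0 to 2 with 1 array left out. At an unadjusted p under 0.05 there were 10 lower and 0 higher by limma. Zbtb18, a repressor needed for cortical neuron differentiation, had saline signals of 12430, 11920, 13820 and 13980 and kainate signals from 9625 to 12080. It changed by -0.28 (SE 0.07, adjusted p = 0.0355 by limma). Neurod6, a bHLH factor of pyramidal neurons, changed by -0.31 (SE 0.08, adjusted p = 0.0418 by limma). The groups of both genes overlapped, and each call held in only 2 of the 10 fits that left out an array. Those were without wild-type kainate replicate 2 or A-CREB kainate at 18 mg/kg replicate 1 for Zbtb18, and without wild-type kainate replicate 1 or A-CREB kainate at 18 mg/kg replicate 2 for Neurod6. The list's median was -0.21 after quantile and -0.20 after cyclic loess normalization.

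Synaptic adhesion and axon guidance genes had 43 tested members, of which 4 fell (9.30%, against 1.51% of all genes), 1 rose and 31 were below 0, with a median of -0.15. The 4 falls became 2 after quantile or cyclic loess normalization and 1 without the replicate number. They became 1 without wild-type saline replicate 1, A-CREB saline replicate 1, wild-type kainate replicate 1, either A-CREB array at 14 mg/kg or A-CREB kainate at 18 mg/kg replicate 2, 2 without wild-type saline replicate 2 and 6 without A-CREB saline replicate 2. At an unadjusted p under 0.05 there were 14 lower and 2 higher. Slitrk1, a leucine-rich repeat protein that organises synapses, had saline signals of 1966, 2171, 2147 and 2271, while its kainate signals ran from 1357 over 1407 to 1759. Every kainate array lay below every saline array. Its change was -0.54 (SE 0.09, adjusted p = 0.00413 by limma), and it passed without the replicate number and without each array. Its relative Slitrk5 changed by -0.46 (SE 0.11, adjusted p = 0.0355 by limma), a call that held only without A-CREB saline replicate 2 or wild-type kainate replicate 2. Epha4, an ephrin receptor that repels axons, changed by -0.41 (SE 0.10), with overlapping groups, and its call held only without wild-type saline replicate 2, A-CREB saline replicate 2 or wild-type kainate replicate 2. Cdh8, a cadherin outside the naming rule and given to complete the count, was the remaining fall, at -0.35 (SE 0.09). Against these, Pcdh8, the activity-induced protocadherin also called arcadlin, rose by 1.82 (SE 0.10, adjusted p = 2.9e-08 by limma).

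Ion channels had 1 call in the fit of all arrays. Of 33 potassium channel genes 1 fell (3.03%, near the 1.51% of all genes) and 0 rose, 28 were below 0, where 55.5% of all genes were, and the median was -0.14. The fall was that of Kcnj3, a G-protein gated inward rectifier subunit, with saline signals of 1518, 2161, 1880 and 2080 and kainate signals of 1116 to 1786. Its change was -0.39 (SE 0.09, adjusted p = 0.0289 by limma). It missed the threshold without wild-type saline replicate 2, A-CREB saline replicate 1, wild-type kainate replicate 1, A-CREB kainate at 14 mg/kg replicate 1 or A-CREB kainate at 18 mg/kg replicate 2. Kcng1, a silent voltage-gated subunit chosen after its value was seen, was at -0.66 (SE 0.18) and did not pass. The list had 7 genes lower and 3 higher at an unadjusted p under 0.05. Of 25 calcium, sodium and HCN channel genes none passed, 22 were below 0 and the median was -0.14, and before adjustment 5 were lower and 0 higher by limma at a p under 0.05. The arrays disagreed on how far: the median of that list was -0.37 on the arrays numbered 1 and 0.00 on those numbered 2. Fitted alone, the arrays numbered 1 called 8 falls in it and those numbered 2 called 0. For the potassium channels these medians were -0.22 and -0.05, with 6 falls on number 1 and 1 rise on number 2.

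Ionotropic receptors were not called in either direction in the fit of all arrays. None of 16 AMPA, NMDA and kainate receptor subunits passed (median -0.08, with 3 lower and 0 higher at an unadjusted p under 0.05 by limma). On the arrays numbered 1 alone 4 of them fell, with a median of -0.24, against 0 and -0.03 on those numbered 2. There was 1 fall without A-CREB saline replicate 2 or without wild-type kainate replicate 2. None of 11 GABA receptor subunits passed (median -0.06, with 2 lower and 0 higher). Of 26 tested G-protein coupled receptors 3 fell (11.5%) and 2 rose (7.69%), and 0 of either passed without the replicate number. Falls numbered 1 without A-CREB saline replicate 1 and 6 without wild-type kainate replicate 2. Htr1a, the serotonin receptor that hyperpolarises pyramidal cells, had saline signals of 602, 626, 681 and 625 and kainate signals from 283 to 546. It did not overlap and changed by -0.61 (SE 0.14, adjusted p = 0.0212 by limma), with -0.31 in wild type and -0.83 in A-CREB. The test of that genotype difference did not pass. Its other probe set changed by -0.08, and the call was lost without either A-CREB saline array or without wild-type kainate replicate 1. Grm7, a presynaptic metabotropic glutamate receptor, changed by -0.45 (SE 0.10, adjusted p = 0.0168 by limma) with no overlap, and lost its call only without wild-type saline replicate 2. Oprl1, the nociceptin receptor, named to complete the count, changed by -0.45 (SE 0.12, adjusted p = 0.0446 by limma), with -0.10 in wild type and -0.71 in A-CREB, a difference that did not pass (adjusted p = 0.996 by limma).

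The risen receptors were Htr1b and Sstr2. Htr1b, a presynaptic serotonin receptor, had saline signals of 350, 449, 263 and 342 and kainate signals from 378 over 490 to 728. The groups overlapped over all arrays but not within either number, and the change was 0.54 (SE 0.10, adjusted p = 0.0069 by limma). Sstr2, a somatostatin receptor, had 687, 649, 704 and 524 after saline and 786 to 1116 after kainate, with no overlap, and changed by 0.56 (SE 0.11, adjusted p = 0.011 by limma). Both passed without each array in turn and neither without the replicate number (adjusted p = 0.184 and 0.0594 by limma). Neither was called in wild type alone or in A-CREB alone.

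**Figure D4:**
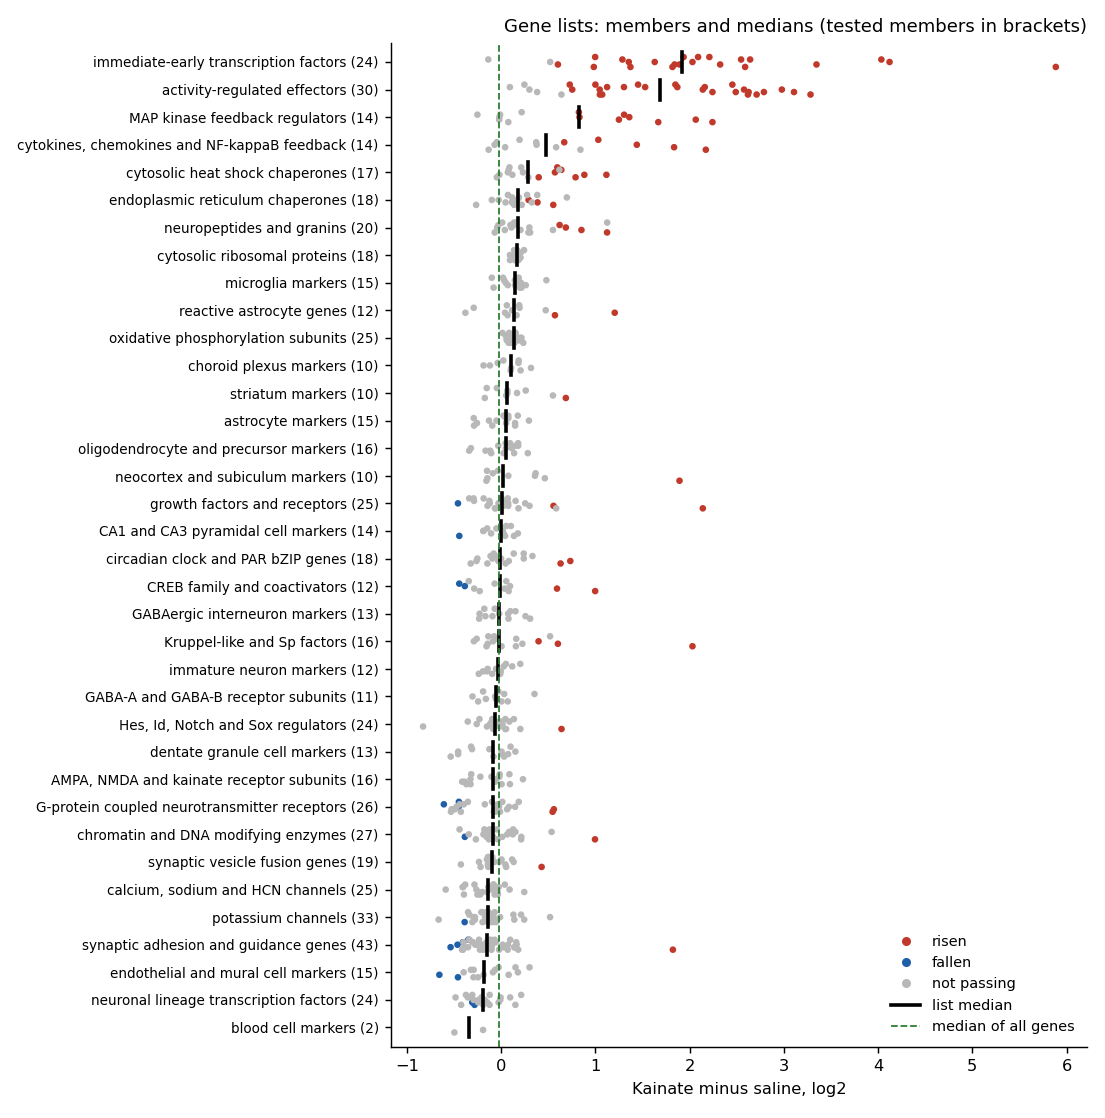
Change after kainate (log2, horizontal) for the tested members of the gene lists, 1 point per gene, with risen genes in red, fallen in blue, the list median as a black bar and the median of all genes as a dashed line. The lists of immediate-early transcription factors and activity-regulated effectors stand far to the right, at medians of 1.91 and 1.69. The channel, adhesion and neuronal transcription factor lists sit just left of the dashed line.

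Of 12 tested members of the CREB family and its coactivators 2 rose (16.7%, against 2.27% of all genes), 2 fell (16.7%, against 1.51%) and the median was -0.02. The falls became 0 after quantile or cyclic loess normalization and without the replicate number. They also became 0 without either wild-type saline array, A-CREB saline replicate 1 or wild-type kainate replicate 1, and without A-CREB kainate at 14 mg/kg replicate 1 or at 18 mg/kg replicate 2. Crem, which encodes the inducible repressor ICER among other forms, rose by 0.997 (SE 0.13, adjusted p = 0.000261 by limma). Atf4, a factor of the integrated stress response, had saline signals of 2885, 2472, 2841 and 2359 and kainate signals from 2692 over 4347 to 4851. It rose by 0.59 (SE 0.10, adjusted p = 0.00408 by limma), with 0.34 in wild type and 0.78 in A-CREB. The test of that genotype difference did not pass (adjusted p = 0.996 by limma). The groups of Atf4 overlapped: wild-type kainate replicate 2, at 2692, lay among the saline arrays. Its difference from its saline partner was 0.12, against 0.56 in wild-type kainate replicate 1. Crebbp, the acetyltransferase that CREB recruits, had 1717, 1334, 1691 and 1233 after saline and 1073 to 1185 after kainate. Its 6 kainate arrays were tightly packed below the saline arrays, and it changed by -0.39 (SE 0.09, adjusted p = 0.0317 by limma). Its 2 other probe sets were at -0.50 and -0.19. Crtc1, a calcium-regulated CREB coactivator, changed by -0.45 (SE 0.12, adjusted p = 0.0444 by limma) with overlapping groups. Crebbp passed only without A-CREB saline replicate 2, wild-type kainate replicate 2, A-CREB kainate at 14 mg/kg replicate 2 or A-CREB kainate at 18 mg/kg replicate 1. Crtc1 passed only without A-CREB saline replicate 2 or wild-type kainate replicate 2.

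Chromatin enzymes held 27 tested members with 1 rise and 1 fall, the latter being Crebbp again. Kdm6b, an H3K27 demethylase, had saline signals of 596 and 523 on arrays numbered 1 and 1294 and 989 on arrays numbered 2. Its kainate signals were 1185, 1057 and 608 on number 1 and 2905, 2530 and 2392 on number 2. The numbers differed as much as the treatments, and within each number all kainate arrays were above all saline arrays. Kdm6b rose by 0.99 (SE 0.14, adjusted p = 0.000625 by limma), against an adjusted p of 0.437 by limma without the replicate number.

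The rises were led by Npas4, the activity-dependent bHLH-PAS factor. Its signal was 251, 170, 160 and 148 after saline and ran from 8526 over 11610 to 16280 after kainate. Its change was 5.89 (SE 0.17, adjusted p = 9.07e-12 by limma), and the groups were far apart. The next 11 by size were Fosb at 4.12, Atf3 at 4.03, Fos at 3.35, Ptgs2 at 3.28, Inhba at 3.11, Ccn1 at 2.98, Gadd45g at 2.79, Btg2 at 2.71, Ier2 at 2.64, Nptx2 at 2.63 and Gadd45b at 2.62. All 12 passed without the replicate number, in each genotype alone, in each number alone and without each array. The lists of immediate-early transcription factors (22 of 24 risen, median 1.91) and activity-regulated effectors (25 of 30, median 1.69) had most of their members among the rises. Of 14 MAP kinase feedback regulators 8 rose, led by Errfi1 at 2.24 (SE 0.13) and the MAP kinase phosphatase Dusp1 at 2.06 (SE 0.16).

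Smaller rises covered other roles. Ciart, a clock repressor, had saline signals of 316, 287, 302 and 347 and kainate signals from 436 to 580, with no overlap, and rose by 0.63 (SE 0.12, adjusted p = 0.0068 by limma). Per1, a clock gene with a CREB-responsive promoter, rose by 0.73 (SE 0.14, adjusted p = 0.00717 by limma), though 1 kainate array, A-CREB at 18 mg/kg replicate 1, stood at 766 among saline arrays of 666 to 806. These were the only 2 rises among 18 clock and PAR bZIP genes, of which 0 fell, with 4 higher and 1 lower at an unadjusted p under 0.05 by limma. Id1, a dominant-negative bHLH protein, was the only rise among 24 Hes, Id, Notch and Sox regulators. Its signals were 858, 594, 768 and 860 after saline and 1003 to 1483 after kainate, a change of 0.64 (SE 0.12, adjusted p = 0.00551 by limma). Klf4, a Kruppel-like factor, rose by 2.03 (SE 0.20). Klf6 at 0.60 and Klf9 at 0.40 completed the 3 rises among 16 Kruppel-like and Sp factors, and each lost its call without 5 or more of the arrays: Klf6 passed only without wild-type kainate replicate 2 or A-CREB kainate at 18 mg/kg replicate 1. Klf9 missed the threshold without wild-type saline replicate 2, A-CREB saline replicate 1, wild-type kainate replicate 1 or either A-CREB array at 14 mg/kg.

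Neuropeptide and granin genes had 4 rises of 20 and 0 falls, and before adjustment 7 were higher and 0 lower by limma. The 4 rises became 2 without the replicate number. Scg2, secretogranin 2, rose by 1.12 (SE 0.12), from saline signals of 5195, 4831, 4733 and 4485 to kainate signals of 8448 to 14750. Nts, neurotensin, rose by 0.85 (SE 0.10) from 595, 666, 740 and 670 to between 1097 and 1561. Pnoc, the precursor of nociceptin, rose by 0.62 (SE 0.13, adjusted p = 0.0121 by limma). Its saline signals were 417, 478, 304 and 456 and its kainate signals 502 to 743, and it lost its call only without A-CREB saline replicate 1 (adjusted p = 0.0873 by limma). Pnoc rose while Oprl1, the receptor of its peptide, fell, and neither passed without the replicate number. Tac1, the tachykinin precursor, rose by 0.69 (SE 0.13). Tac1 is also on the list of striatal markers, whose mean level was 10.6 in wild-type kainate replicate 2, against 8.79 to 9.60 in the saline arrays. The part of that list in the Tac1 value was not tested, and Tac1 passed without that array.

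Of 17 cytosolic heat shock genes 7 rose (41.2%, against 2.27% of all genes) and 0 fell, 10 did not pass and the median was 0.29. The 7 rises became 2 without the replicate number, 3 without wild-type saline replicate 2 or A-CREB saline replicate 2, and 4 without A-CREB saline replicate 1, wild-type kainate replicate 1 or either A-CREB array at 14 mg/kg. Of 18 endoplasmic reticulum chaperones 3 rose (16.7%) and 0 fell, 15 did not pass and the median was 0.18. Those 3 became 0 without the replicate number or without A-CREB saline replicate 1, 1 without wild-type saline replicate 2 or wild-type kainate replicate 1, and 2 without A-CREB saline replicate 2, either A-CREB array at 14 mg/kg or A-CREB kainate at 18 mg/kg replicate 2. Dnajb1, an HSP40 cochaperone, had saline signals of 1974, 2014, 1776 and 1884 and kainate signals from 2861 to 6992, and rose by 1.12 (SE 0.18). Dnajb4 rose by 0.79 (SE 0.11). Hspa5, the main chaperone of the endoplasmic reticulum, rose by 0.55 (SE 0.11, adjusted p = 0.0101 by limma) and lost its call without A-CREB saline replicate 1 or wild-type kainate replicate 1. The wild-type kainate replicate 2 signal of Hspa5, 7955, lay inside the saline range of 6812 to 8110.

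Cytokine and NF-kappaB feedback genes had 5 rises of 14 tested (35.7%) and 0 falls, with a median of 0.48. Of 20 members with a probe set only 14 passed the filter on brightness, which used the mean over all 10 arrays. A dim gene that kainate raised could pass it through the kainate arrays, so the share and the median lean towards rises. There were 2 rises without the replicate number, without wild-type saline replicate 2 or without wild-type kainate replicate 1. There were 3 without A-CREB saline replicate 1, wild-type saline replicate 1 or either A-CREB array at 14 mg/kg. Nfkbiz, an inducible NF-kappaB cofactor, rose by 2.17 (SE 0.18) and Socs3, a brake on cytokine receptors, by 1.83 (SE 0.18). Ccl3, a chemokine, was dim after saline (78.7, 23.6, 62.2 and 23.7) and reached 78.3 to 374 after kainate, a change of 1.44 (SE 0.34, adjusted p = 0.0275 by limma). That call was lost without wild-type saline replicate 2, either A-CREB saline array or wild-type kainate replicate 1. Cxcl1, at 0.67 (SE 0.17), passed in only 3 of the 10 fits that left out an array, those without A-CREB saline replicate 1 or either array at 18 mg/kg. Its other 2 probe sets were at 1.76 (SE 0.25, adjusted p = 0.00129 by limma) and 1.15 (SE 0.20, adjusted p = 0.00622 by limma), and both passed in the fit over probe sets.

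Housekeeping genes were read as 2 further lists. None of 18 cytosolic ribosomal protein genes and none of 25 oxidative phosphorylation genes passed, and all had changes above 0, with medians of 0.16 and 0.13 and 4 genes each at an unadjusted p under 0.05 by limma. These medians were 0.06 and 0.03 after quantile normalization and 0.07 and 0.04 after cyclic loess, and 0.01 and 0.04 on the arrays numbered 2. The shift was thus smaller under either scaling. Of the 200 falls, 113 passed after quantile normalization (130 falls, 68.9% of calls risen). After cyclic loess 112 passed (123 falls, 70.9% risen), against 60% risen as deposited. All 200 remained below 0 after either normalization, but the genes were called on these same arrays, which largely fixes that sign.

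Cell type markers were read beside these results. The hippocampal lists were expressed in every array, with mean levels for dentate granule cells of 9.35 to 9.59 after saline and 8.94 to 9.51 after kainate. For CA1 and CA3 cells they were 10.07 to 10.23 after saline and up to 10.19 after kainate. Bulk values cannot tell fewer cells of a type from less RNA per cell. None of the markers of dentate granule cells (13 tested), GABAergic interneurons (13), immature neurons (12), astrocytes (15), oligodendrocytes and their precursors (16), microglia (15) or choroid plexus (10) passed the threshold by limma. At an unadjusted p under 0.05 interneuron markers had 2 higher and 0 lower, astrocyte markers 2 higher and 3 lower, oligodendrocyte markers 3 higher and 2 lower, microglia and choroid plexus markers 1 higher each and immature neuron markers 0. Dentate granule cell markers had 4 lower and 0 higher, and the summed signal of that list ran from 15622 to 18384 in saline and from 14374 to 17936 in kainate arrays. The CA1 and CA3 list had 1 fall of 14, that of Nr3c2, the mineralocorticoid receptor, at -0.45 (SE 0.11, adjusted p = 0.03 by limma), with a list median of 0.00. Nr3c2 passed only without wild-type saline replicate 1, wild-type kainate replicate 1 or either array at 18 mg/kg. Endothelial and mural markers had 2 falls of 15 and a median of -0.19. Their mean level was 8.64 to 8.75 in the saline and 8.39 to 8.62 in the kainate arrays, so those ranges did not overlap, while the summed signals did, at 7952 to 9128 and 7948 to 9217. The falls were Tek, an angiopoietin receptor, at -0.66 (SE 0.17, adjusted p = 0.0493 by limma), and Pdgfrb, the pericyte receptor for PDGF, at -0.46 (SE 0.12, adjusted p = 0.0444 by limma). Tek passed only without A-CREB saline replicate 2, wild-type kainate replicate 2 or A-CREB kainate at 18 mg/kg replicate 2, and Pdgfrb only without either array at 18 mg/kg. Of 12 reactive astrocyte genes Hspb1 (0.57) and Lcn2 (1.20) rose. Hspb1 lost its call without wild-type saline replicate 2 or A-CREB saline replicate 1, and Lcn2 passed only without A-CREB saline replicate 1, wild-type kainate replicate 2 or either array at 18 mg/kg. Lcn2, an iron-carrier binding protein, was higher in 5 of 6 kainate arrays and lower in A-CREB at 18 mg/kg replicate 1, at 110 against 158 in its saline partner. Markers of neighbouring tissue were read as well. Of 10 neocortex and subiculum markers 1 rose, Nr4a2 (1.89), which is also an immediate-early gene. The summed signal of that list was 7644 to 11104 in the saline and 11643 to 16657 in the kainate arrays, with a median change of 0.02 over its genes. Nr4a2 counts in that sum, and its own mean signal was 2031 in the saline and 7722 in the kainate arrays. Of 10 striatum markers 1 rose, Tac1, with a median of 0.07, and of 2 blood cell markers 0 passed and 1 was lower at an unadjusted p under 0.05 by limma. The part of these markers, and of the vascular and glial ones, in the other changes was not tested.

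Promoters of the risen and fallen genes were searched for letters bound by factors of the activity response. The window was the 250 bases before each RefSeq start site (GRCm38.p6), on both strands. Of the 300 risen genes 242 had an entry with 332 promoters, of the 200 fallen genes 159 with 208, and of all genes tested 10657 with 13717. The full CRE, TGACGTCA, stood in 6.33% of risen, 0.481% of fallen and 2.41% of all promoters tested. Among genes risen by over 1 it stood in 8.04%. The shorter core TGACG, which the full site holds on each strand, stood in 42.2%, 17.8% and 25.3%. The CArG box bound by SRF stood in 3.31%, 0% and 1.14%. The AP-1 site TGANTCA stood in 7.53%, 3.37% and 4.56%, and the E-box CACGTG in 11.4%, 7.69% and 7.94%. The median GC content was 60.8%, 63.4% and 59.6%. A match is a string of letters and not a measured binding site, and these shares are a description with no test.

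The following promoters show 4 risen genes with a full CRE and 2 of the firmest falls, each as the 250 bases before the start, 5′ to 3′ on the gene's strand, with CRE and TGACG letters in capitals. In Errfi1 (chr4:150854820-150855069, plus strand) the CRE lies 51 to 44 bases before the start, in Dusp1 (chr17:26508473-26508722, minus strand) 143 to 136, in Btg2 (chr1:134079156-134079405, minus strand) 166 to 159 and in Scg2 (chr1:79440027-79440276, minus strand) 68 to 61. Promoters of risen genes were picked for holding a full CRE or CArG box. Errfi1 has 2 promoters among the entries, of which 1 is shown. St6gal2 (chr17:55445132-55445381, plus strand) holds none of the motifs in this window, and Zc3h6 (chr2:128967152-128967401, plus strand) holds TGACG 127 to 123 bases before the start.
Errfi1: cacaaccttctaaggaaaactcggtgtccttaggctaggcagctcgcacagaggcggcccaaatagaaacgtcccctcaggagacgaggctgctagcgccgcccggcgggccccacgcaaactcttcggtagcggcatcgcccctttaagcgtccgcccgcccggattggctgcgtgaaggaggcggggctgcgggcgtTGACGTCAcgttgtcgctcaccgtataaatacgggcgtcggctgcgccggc
Dusp1: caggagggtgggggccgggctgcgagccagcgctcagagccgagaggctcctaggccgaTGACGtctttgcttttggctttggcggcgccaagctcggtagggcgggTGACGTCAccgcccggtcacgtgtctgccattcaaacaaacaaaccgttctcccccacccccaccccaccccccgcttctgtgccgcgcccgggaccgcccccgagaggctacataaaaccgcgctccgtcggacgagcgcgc
Btg2: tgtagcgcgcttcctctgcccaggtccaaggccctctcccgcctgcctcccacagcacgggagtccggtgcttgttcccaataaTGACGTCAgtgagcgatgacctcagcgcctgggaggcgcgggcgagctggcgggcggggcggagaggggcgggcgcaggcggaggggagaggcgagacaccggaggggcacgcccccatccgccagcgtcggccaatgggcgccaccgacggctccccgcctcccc
Scg2: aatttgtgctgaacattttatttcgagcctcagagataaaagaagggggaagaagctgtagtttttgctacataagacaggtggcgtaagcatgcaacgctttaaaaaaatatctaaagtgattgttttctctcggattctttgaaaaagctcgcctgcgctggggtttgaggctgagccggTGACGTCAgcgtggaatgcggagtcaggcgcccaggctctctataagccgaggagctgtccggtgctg
St6gal2: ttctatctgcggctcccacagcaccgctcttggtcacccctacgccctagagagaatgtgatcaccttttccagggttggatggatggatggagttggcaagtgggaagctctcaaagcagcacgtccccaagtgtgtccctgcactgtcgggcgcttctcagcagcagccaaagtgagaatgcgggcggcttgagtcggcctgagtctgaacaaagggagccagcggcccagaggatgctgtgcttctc
Zc3h6: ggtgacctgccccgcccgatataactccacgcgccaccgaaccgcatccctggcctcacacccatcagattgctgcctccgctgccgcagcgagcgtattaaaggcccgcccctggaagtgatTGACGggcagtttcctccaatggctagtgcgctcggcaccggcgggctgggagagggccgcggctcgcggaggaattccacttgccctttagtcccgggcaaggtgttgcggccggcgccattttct

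The replicate number was a factor in every value above, and a test of whether the kainate response differed between the numbers gave 0 genes (0%) with an adjusted p under 0.05 by limma, against 1402 where p was under 0.05 before adjustment and 661 expected by chance at that p. The smallest adjusted p was 0.0714, shared by Ldlrad3 and Nptx2. Nptx2, a secreted pentraxin that clusters AMPA receptors, had saline signals of 1086 and 766 on arrays numbered 1 and of 228 and 139 on those numbered 2. Its kainate signals were 3140, 3223 and 1439 on number 1 and 2649, 2749 and 2434 on number 2. The saline arrays differed between the numbers, 1 kainate array (A-CREB at 18 mg/kg replicate 1) was below the other 5, and the rise was 1.49 on number 1 and 3.76 on number 2. The interaction of Nptx2 passed without A-CREB kainate at 14 mg/kg replicate 1 (adjusted p = 0.0103 by limma) and without A-CREB kainate at 18 mg/kg replicate 1 (0.0222). Leaving out wild-type saline replicate 1 or A-CREB saline replicate 2 gave 1 call, wild-type saline replicate 2 gave 2 and A-CREB saline replicate 1 gave 3, none of which was Nptx2 or Ldlrad3. Ldlrad3, an LDL receptor class protein, was 0.47 higher after kainate on number 1 and changed by -0.93 on number 2.

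**Figure D5:**
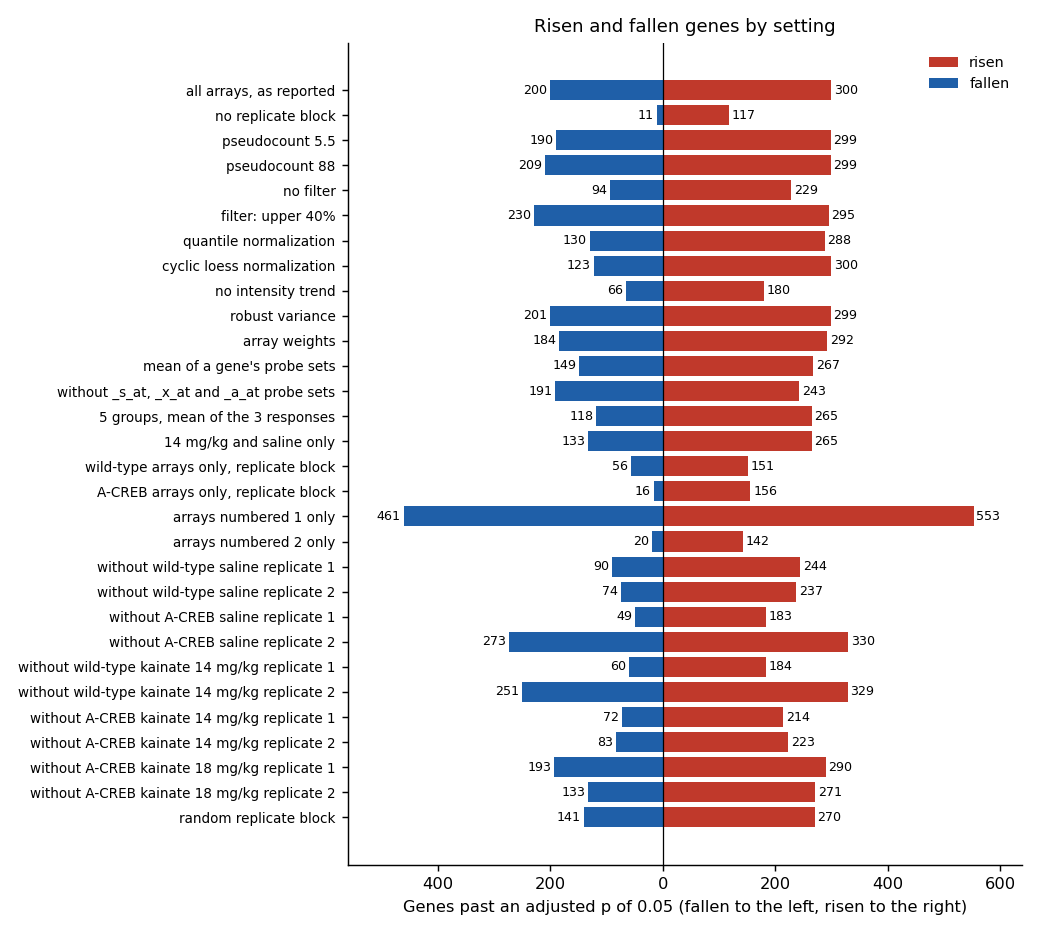
Number of fallen (blue, to the left) and risen (red, to the right) genes with an adjusted p under 0.05 in each setting. Rises range from 117 to 553 and falls from 11 to 461, and the lowest count of each is without the replicate number.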

How the data were processed

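Hippocampal total RNA was hybridised to Affymetrix Mouse430_2 arrays, 10 in all. The deposited values are intensities, the linear signal of each probe set, made with MAS5 in GCOS per the submitters' processing notes (versions not given in the sources used here). Each array's trimmed mean, 2% from each end, was 500 as deposited. Median signals were 94.9 to 106 on arrays numbered 1 and 135 to 152 on those numbered 2, and 10 arrays limit the precision of all values.

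Of 45101 probe sets, 64 controls, 932 with several genes and 9160 with none were left out. The upper 60% by mean level over all 10 arrays were kept, and the brightest probe set stood for a gene, giving 13219 genes. A gene could thus be kept through the treatment where it was high. The lowest mean of a tested gene was 6.47, while the mean of Atf3 was 6.35 after saline and that of Acap1 was 6.26 after kainate. Log2(signal + 22) was fitted with limma 3.58.1 in R 4.3.3 (lmFit, eBayes with an intensity trend) on kainate, genotype and replicate number, two-sided, with Benjamini-Hochberg adjustment. Single-gene adjusted p-values come from that fit. Interactions with genotype and with number were added in turn. What a replicate number stands for was not given in the sources used here. The differences between the numbers correlated at 0.517 to 0.642 over 10 pairs of groups and each of the 10 arrays was closest to one of its own number, so the numbers were taken to pair the samples (paired design, with a replicate block).

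Named were the 12 largest rises and the 16 largest falls with the same sign in 6 of 6 kainate arrays, up to 4 members passing per list by smallest p, genes past an interaction and cell type markers a result turned on, 80 genes in all. There were 37 lists, of which 1 is not reported here. The members and lists were chosen with earlier results of these data known, and no list was given a test. The fit was tested on simulated data, with 200 of 13219 genes changed in 5 runs. It found 38.5%, 86.9% and 98.5% of changes of 0.5, 1 and 2, with 6.2 false calls per run. Alternatives were other pseudocounts, filters and normalizations, no trend, robust variance, array weights, other choices of probe sets, subsets of groups, no replicate block and leaving out each array. Promoters are RefSeq's (GRCm38.p6). The files name no genome build.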

Additional observations from a re-analysis of the deposited data

Results flagged for a closer look

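Of 160 groups of levels tested, 10 (6.25%) had an array far from the others of its treatment, and chance flags about 1 in 20. Levels are log2(signal + 22). In 6 genes A-CREB kainate at 18 mg/kg replicate 1 was the lowest of the kainate arrays by such a gap. Fosb stood at 10.71 there, with the other kainate arrays between 11.72 and 12.21, and Ptgs2 at 11.28, with the others between 12.16 and 12.63. Nptx2 stood at 10.51 (others 11.26 to 11.66), Gadd45b at 10.85 (others 11.44 to 11.78), Pcdh8 at 13.42 (others 13.87 to 13.99) and Nr4a2 at 12.18 (others 12.85 to 13.19). All 6 genes rose with and without that array.

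Wild-type kainate replicate 2 was the highest kainate array for Tac1, at 12.08 (others 11.09 to 11.33), and the lowest for Hspa5, at 12.96 (others 13.42 to 13.65), and Atf4, at 11.41 (others up to 12.25). Bdnf, a neurotrophin that rose by 2.14, stood at 9.636 in wild-type saline replicate 2, with the other saline arrays between 10.04 and 10.09.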

How the results depend on the processing

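Against 300 rises and 200 falls, the fit with no replicate block gave 117 and 11, and the replicate number as a random block, an alternative chosen after seeing the data, gave 270 and 141. No filter on brightness gave 94 falls, quantile normalization 130, cyclic loess 123, the fit of 5 groups 118 and the arrays at 14 mg/kg with saline 133, with rises within 1.5 times. Without an intensity trend there were 180 and 66. Wild-type arrays alone gave 151 and 56, A-CREB arrays alone 156 and 16, arrays numbered 1 alone 553 and 461 and arrays numbered 2 alone 142 and 20. Leaving out each array gave 183 to 330 rises, 49 to 273 falls, 0 to 3 genotype interactions and 0 to 3 number interactions. Both pseudocounts, the upper 40% of probe sets, robust variance, array weights, mean probe sets and the removal of _s_at, _x_at and _a_at probe sets kept both counts within 1.5 times. No named gene reversed its sign in these settings: of 2300 values 1774 kept their side of the threshold and 526 lost it. The genes were named for passing on these same arrays, which largely fixes that sign. Averaging the probe sets of each gene, Mycl was at -0.72, Acap1 at -0.52, Tmem200c at -0.36 and Arhgef15 at -0.42. With a pseudocount of 88 Acap1 was at -0.64 and Arhgef15 at -0.52. The cause of these shifts was not tested. Signal over background limits the dimmest genes most, and 10 arrays limit all.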

Other observations

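Among the risen genes not described so far were regulators of signalling and secretion. Rgs2, on the list of activity-regulated effectors, and Rgs4, on that of MAP kinase feedback regulators, which speed the shutdown of G-protein signals, rose by 2.16 (SE 0.14) and 1.36 (SE 0.10), and their saline signals were 2113 to 2198 and 3207 to 4874. Both passed without each array. Hbegf, a ligand of the EGF receptor, rose by 0.55 (SE 0.12), with saline signals of 476 to 608 and kainate signals of 614 to 946, and missed the threshold without wild-type saline replicate 1 or wild-type kainate replicate 1. Syt4, an unusual synaptotagmin, was the only rise of 19 vesicle fusion genes, at 0.43 (SE 0.11, adjusted p = 0.0361 by limma), with groups apart only within each number. Its call held without wild-type saline replicate 1, wild-type kainate replicate 2 or A-CREB kainate at 18 mg/kg replicate 1 alone.

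Probe sets beyond the brightest of a gene gave a further reading of the same arrays. Of the 200 fallen genes 118 had 196 other tested probe sets, of which 171 were below 0, 13 passed and 0 passed in the opposite direction. Of the 300 risen genes 160 had 271, of which 251 were above 0, 102 passed and 0 passed in the opposite direction. These adjusted p-values are from a limma fit over 23684 probe sets. The shares of all those probe sets that lay below 0 or passed are not given here. How far the counts exceed that background therefore cannot be read. Over the 13219 genes, 55.5% were below 0, 1.51% fell and 2.27% rose.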
